A study of Mus musculus with 26 samples.

Results

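Messenger RNA levels of 8 genes of steroid hormone signalling were examined in the left ventricle of mice lacking the protein phosphatase 2A regulatory subunit Ppp2r2a (B55alpha) in cardiomyocytes. The genes were picked by symbol from the 56941 genes of the count matrix. They comprise 3 receptors (Esr1, Nr3c1 and Nr3c2), the enzyme gene Hsd11b1, and 4 genes known to be induced by glucocorticoids (Fkbp5, Tsc22d3, Sgk1 and Zbtb16). Hsd11b1 was chosen because its level differed between males and females, so its sex difference is described here without a test. The other 7 genes were chosen by name, but with earlier results of these data known. Their tests may therefore not be independent of that choice.

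The 26 mice fell into 4 groups: 6 males and 6 females with the Ctrl genotype, and 7 males and 7 females with the cKO genotype. The cKO mice carried a Cre transgene driven by the alpha myosin heavy chain promoter, which is active in cardiomyocytes, with floxed Ppp2r2a (aMHC-CreTg/0-Ppp2r2aL/L). The Ctrl mice carried the floxed gene without Cre (aMHC-Cre0/0-Ppp2r2aL/L). Mice with Cre and no floxed gene were not analysed here, so the presence of Cre and the loss of Ppp2r2a cannot be told apart. All mice were 12 to 16 weeks old and had been infused for 2 weeks with saline from an osmotic minipump. The strain is labelled C57BL/6N, while the design text describes a mixed background of C57BL6/N (floxed mice) and FVB (Cre mice). The labels used here name neither the time of day at which tissue was taken nor a hormone level. They do not say whether each library came from 1 mouse; replicates are taken as separate mice, and p-values measure the spread between these libraries.

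Corticosterone, the main glucocorticoid of mice, binds the glucocorticoid receptor (encoded by Nr3c1), which enters the nucleus and raises or lowers the transcription of genes near its DNA binding sites. The same hormone also binds the mineralocorticoid receptor (Nr3c2), and cardiomyocytes have little of the enzyme Hsd11b2 that protects this receptor by inactivating the hormone. Hsd11b1 works in the opposite direction and regenerates active hormone from its inactive 11-keto form, using NADPH supplied by H6pd inside the endoplasmic reticulum. Esr1 encodes estrogen receptor alpha. Fkbp5 encodes a cochaperone of the receptor complex that lowers its affinity for hormone, and is itself induced by the receptor in a feedback loop. Tsc22d3 encodes GILZ, an anti-inflammatory leucine zipper protein; Sgk1 encodes a kinase that regulates ion channels; Zbtb16 encodes the zinc finger transcription factor PLZF.

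Libraries held 14403102 to 30867399 counts, and 3 counts corresponded to 0.0972 to 0.208 CPM, the usual count unit relative to a library's total. Levels are given in CPM, with totals scaled by edgeR's TMM factors. The targeted gene Ppp2r2a measured 37.4 ± 10.2 CPM (SD, n = 6) in Ctrl males, 14.1 ± 1.81 (n = 7) in cKO males, 40.4 ± 3.60 (n = 6) in Ctrl females and 13.4 ± 2.07 (n = 7) in cKO females. Every cKO library lay below every Ctrl library, but Ctrl males 3 and 6 were at 24.9 and 24.1 CPM, below the other Ctrl mice. The ventricular identity of the tissue matched its markers: 6 cardiomyocyte genes summed to 50423 to 70213 CPM, while the atrial genes Sln and Myl7 reached at most 3 counts in any library and the third atrial marker, Myl4, had 18 to 49 counts. In this bulk tissue, fewer cells of a type and less RNA per cell cannot be told apart.

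Promoter sequences are shown for 3 of the 4 glucocorticoid-induced genes, each of which belonged to a pair whose levels moved together between mice, described further down. The RefSeq promoter table used (build GRCm38.p6, whereas the counts were made on GRCm39) held 14 start sites for 6 of the 8 genes; Nr3c1 and Zbtb16 were not among them. Each window spans the 250 bases upstream of a start site. Annotated exons overlap 6 of the 14 windows, and none of the 3 shown. The windows were searched on both strands for the palindromic glucocorticoid receptor motif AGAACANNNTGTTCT and for the 6-letter motif TGTTCT that ends it. Capitals mark matches, and each sequence runs 5′ to 3′ along the strand of its gene. Sgk1 is shown at chr10:21993640-21993889 (plus strand), Fkbp5 at chr17:28486150-28486399 (minus strand) and Tsc22d3 at chrX:140548572-140548821 (minus strand).
Sgk1: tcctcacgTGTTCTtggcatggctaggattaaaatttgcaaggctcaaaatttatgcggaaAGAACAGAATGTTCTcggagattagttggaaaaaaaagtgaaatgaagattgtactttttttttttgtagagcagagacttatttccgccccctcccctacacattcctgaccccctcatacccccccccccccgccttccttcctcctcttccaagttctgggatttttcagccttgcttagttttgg
Fkbp5: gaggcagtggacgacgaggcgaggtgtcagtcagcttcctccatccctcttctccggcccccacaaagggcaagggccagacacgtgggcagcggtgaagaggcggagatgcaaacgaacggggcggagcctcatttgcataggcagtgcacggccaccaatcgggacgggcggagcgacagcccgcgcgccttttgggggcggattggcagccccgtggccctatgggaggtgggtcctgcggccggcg
Tsc22d3: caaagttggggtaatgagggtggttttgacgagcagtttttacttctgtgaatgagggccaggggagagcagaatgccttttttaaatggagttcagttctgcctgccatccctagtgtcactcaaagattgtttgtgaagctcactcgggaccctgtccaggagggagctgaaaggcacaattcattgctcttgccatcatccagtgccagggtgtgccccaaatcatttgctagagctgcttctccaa

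The Sgk1 window held the whole palindrome, starting 189 bases upstream of the start site, and a separate TGTTCT starting 242 bases upstream. Only 3 of 32851 mouse windows of the same length held the palindrome (0.00913%), and this was the sole one among the 14 windows. Of the 6 Sgk1 windows, the one shown is thus the 1 with the palindrome, so the share over all windows is no test of it. TGTTCT alone was common, in 5284 windows (16.1%), and was present in 4 of the 14, in 3 of the 6 windows of Sgk1 and in 1 of the 3 of Tsc22d3, which is not the one shown. The Fkbp5 and Tsc22d3 windows shown held neither motif, which says only that these letters were absent from these 250 bases. The estrogen receptor motif GGTCANNNTGACC, found in 21 of all windows (0.0639%), was in none of the 14.

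All 8 genes passed the filter on low counts. Per kilobase of exon, Tsc22d3 was the most abundant at a mean of 30.9 ± 8.97 CPM per kilobase (SD over 26 mice), followed by Zbtb16 at 23.4 ± 6.47 and Sgk1 at 16.3 ± 3.97. Nr3c1 came next at 8.75 ± 0.800, then Fkbp5 at 6.01 ± 2.59 and Hsd11b1 at 4.51 ± 1.82. Nr3c2 was at 2.26 ± 0.644, and Esr1 was last at 0.0453 ± 0.0164, with 5 to 25 counts in any library. Neighbours in this order differed by less than the larger of their SDs for Tsc22d3 and Zbtb16 and for Fkbp5 and Hsd11b1. The glucocorticoid receptor transcript was thus more abundant per kilobase than the mineralocorticoid receptor transcript. Exon lengths came from GENCODE M21.

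The genes differed widely in how much mice of the same group varied. Within groups, the SD of log2 CPM was smallest for Nr3c1, at 0.10, and only 15.2% of the 15357 genes tested had a smaller one. Fkbp5 was the most variable at 0.50, with 90.4% of genes tested below it, followed by Esr1 at 0.47, Zbtb16 at 0.44, Nr3c2 at 0.41, Tsc22d3 at 0.39 and Sgk1 at 0.33. Esr1 had 5 to 25 counts in any library, so its SD also holds counting error, whose share was not tested. Hsd11b1 was near the middle of all genes at 0.21 (54.5% of genes below). The highest mouse exceeded the lowest by 5.69-fold for Fkbp5 and by 1.44-fold for Nr3c1. The receptor transcript thus varied least of the 8 from mouse to mouse, and 1 of its induced genes varied most.

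**Figure D1:**
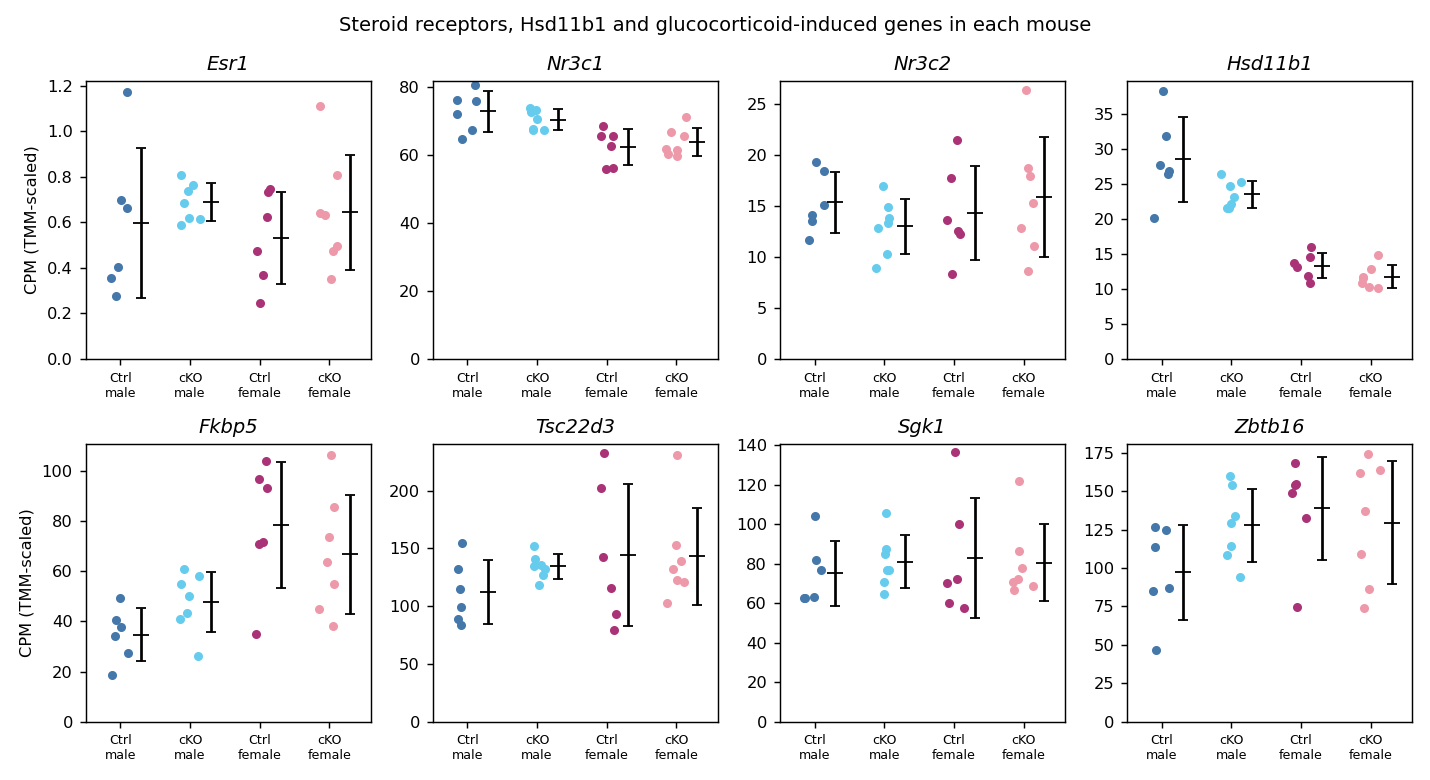
Level of each of the 8 genes in every mouse (points, TMM-scaled CPM, linear axes from 0) by group, with the group mean and SD beside the points. Male and female mice do not overlap in Hsd11b1 (lowest male 20.1, highest female 16.0 CPM), most Ctrl females lie above the Ctrl males in Fkbp5, and Nr3c1 spans only 55.7 to 80.4 CPM.

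Of the 3 receptor genes, Nr3c1 was lower in females and the other 2 did not pass the test. Its level ran from 64.7 to 80.4 CPM (median 73.9) in Ctrl males and from 67.2 to 73.8 (median 70.6) in cKO males. In Ctrl females it ran from 55.7 to 68.4 CPM (median 64.0), and in cKO females from 59.6 to 71.0 (median 61.7). The sexes overlapped in both genotypes, with females lower on average. Averaged over genotypes, Nr3c1 was 0.88-fold as high in females (log2 fold change -0.18, SE 0.04; edgeR quasi-likelihood test, Benjamini-Hochberg adjusted p = 0.00503). The difference was -0.22 in Ctrl mice (adjusted p = 0.0709) and -0.14 in cKO mice (adjusted p = 0.155), each short of the threshold of 0.05 in edgeR.

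Nr3c2 and Esr1 varied more within groups than Nr3c1, and neither passed between the sexes. Nr3c2 ranged from 11.6 to 19.3 CPM (median 14.6) in Ctrl males, 8.95 to 17.0 (median 13.4) in cKO males, 8.36 to 21.5 (median 13.1) in Ctrl females and 8.61 to 26.3 (median 15.3) in cKO females. All 4 groups overlapped, and its log2 difference between females and males averaged 0.09 (95% interval -0.23 to 0.41). Esr1 was measured by few counts everywhere, with medians of 0.535 CPM in Ctrl and 0.685 in cKO males, and of 0.548 in Ctrl and 0.631 in cKO females. Its interval for the sex difference, -0.54 to 0.33 on the log2 scale, was the widest of the 8 genes. Differences within that interval cannot be told from 0 here. Whether few counts or variation between mice set its width was not tested. A stretch of 247 bases of Nr3c2 exon (3.82%) overlaps the antisense gene Gm10649; libraries were stranded, but the strand setting used in counting is not given in the sources used here.

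The level of Hsd11b1 separated the sexes completely, as it was chosen to. It ran from 20.1 to 38.3 CPM (median 27.3) in Ctrl males and from 21.5 to 26.4 (median 23.2) in cKO males. In females it ran from 10.9 to 16.0 CPM (median 13.4) in Ctrl and from 10.1 to 14.8 (median 11.6) in cKO mice. No male overlapped a female in either genotype; over all genes tested, 1.02% did not overlap between the sexes in Ctrl mice and 1.09% in cKO mice, and nothing is read from this for a gene chosen on that contrast. Females had 0.47-fold the male level in Ctrl mice (log2 -1.09) and 0.50-fold in cKO mice (log2 -0.996). These 2 values differed by 0.10 on the log2 scale (SE 0.16, 95% interval -0.22 to 0.42), and the edgeR test of that difference gave an adjusted p of 0.999.

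Hsd11b1 is known in fibroblasts and adipocytes as well as in liver, so markers of fibroblasts and adipocytes are given beside it. Those of macrophages are given because they had the same sign, so nothing is read from that match. Further cell types were also examined. Averaged over genotypes, 4 of 5 endothelial and 2 of 5 mural markers were lower in females and the rest higher. The 5 adipocyte markers (Adipoq, Plin1, Cidec, Lep and Cfd) summed to 0.261 to 6.76 CPM in males and to 1.39 to 11.01 CPM in females, with none at 0 throughout a group. The adipocyte gene Cfd was higher in females (log2 1.57, edgeR adjusted p = 0.0116). The 6 fibroblast markers summed to 701 to 1094 CPM in males and 660 to 942 CPM in females. Of these 6, Col1a2 and Dcn were lower in females (log2 -0.25 and -0.22), Lum was higher (0.33), and the other 3 did not pass the edgeR test. The 6 macrophage markers (Cd68, Adgre1, Csf1r, C1qa, C1qb and Mrc1) summed to 133 to 215 CPM in males and 115 to 183 CPM in females, with none at 0 throughout a group. All 6 had negative values in both genotypes, with a median log2 difference of -0.20 in Ctrl and -0.17 in cKO mice. None of the 6 was called by edgeR; averaged over genotypes, 4 were at an unadjusted p under 0.05, against 22.2% of all genes. The part of any of these cell types in the Hsd11b1 difference was not tested.

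Of the 4 glucocorticoid-induced genes, Fkbp5 was higher in females and the other 3 did not pass the test. Fkbp5 ran from 18.7 to 49.3 CPM (median 35.9) in Ctrl males and from 34.9 to 103.7 CPM (median 82.3) in Ctrl females. The 2 groups overlapped only through Ctrl female 5, at 34.9 CPM, since the next Ctrl female was at 70.6. In cKO mice it ran from 26.1 to 60.8 CPM (median 49.9) in males and from 38.3 to 106.4 CPM (median 63.6) in females, with more overlap.

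The female level of Fkbp5 was 2.27-fold the male level in Ctrl mice (log2 1.18, SE 0.28; edgeR adjusted p = 0.0457). It was 1.40-fold in cKO mice (log2 0.48, SE 0.25; edgeR adjusted p = 0.340) and 1.78-fold averaged over genotypes (log2 0.83, SE 0.19; edgeR adjusted p = 0.00819). The sex difference was not shown to depend on genotype: the contrast of the 2 differences was -0.70 (SE 0.37; edgeR adjusted p = 0.999). The averaged difference passed under every alternative tried, with adjusted p from 0.000542 to 0.0220. The difference in Ctrl mice alone was fragile: it missed the threshold in 10 of 12 fits that left out 1 Ctrl mouse, with edgeR adjusted p from 0.0117 to 0.110.

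Tsc22d3, Sgk1 and Zbtb16 overlapped between the sexes throughout. Tsc22d3 had medians of 107.2 CPM in Ctrl males (83.3 to 155.0), 134.5 in cKO males (118.4 to 152.3), 129.2 in Ctrl females (79.3 to 232.8) and 132.5 in cKO females (102.6 to 231.1). Sgk1 had medians of 69.9 CPM in Ctrl males (62.6 to 104.4), 77.1 in cKO males (64.6 to 105.5), 71.4 in Ctrl females (57.4 to 136.6) and 72.4 in cKO females (66.5 to 121.7). The highest females in both genes were the mice numbered 2, at 232.8 CPM of Tsc22d3 in the Ctrl and 231.1 in the cKO group. Without these 2 mice the averaged sex difference of Sgk1 turned from 0.07 to -0.10, and neither value passed the test.

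Zbtb16 had medians of 100.1 CPM in Ctrl males (46.3 to 126.6), 129.4 in cKO males (94.4 to 160.0), 151.2 in Ctrl females (74.9 to 168.0) and 136.8 in cKO females (74.1 to 174.4). It came nearest to Fkbp5 in the Ctrl comparison, where its log2 difference was 0.52 (95% interval 0.02 to 1.01) with an unadjusted p of 0.0403 and an edgeR adjusted p of 0.383. Averaged over genotypes, the log2 sex differences were 0.27 for Zbtb16 (95% interval -0.07 to 0.60), 0.23 for Tsc22d3 (-0.09 to 0.54) and 0.07 for Sgk1 (-0.21 to 0.34). Differences of the size seen for Fkbp5 (0.83) lay outside all 3 intervals.

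Among the 7 genes open to a test, edgeR thus called 1, Fkbp5, in the Ctrl comparison, where 0.638% of all genes were called and 0.287% were called higher. None of the 7 was called in cKO mice, where 2.7% of all genes were. Nr3c1 was 1 of the 7 at an unadjusted p under 0.05 there, against 17.3% of all genes, and DESeq2 and limma called none either. Averaged over genotypes, 2 of the 7 were called against 7.71% of all genes, Fkbp5 higher (4.02% of all genes) and Nr3c1 lower (3.69%).

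**Figure D2:**
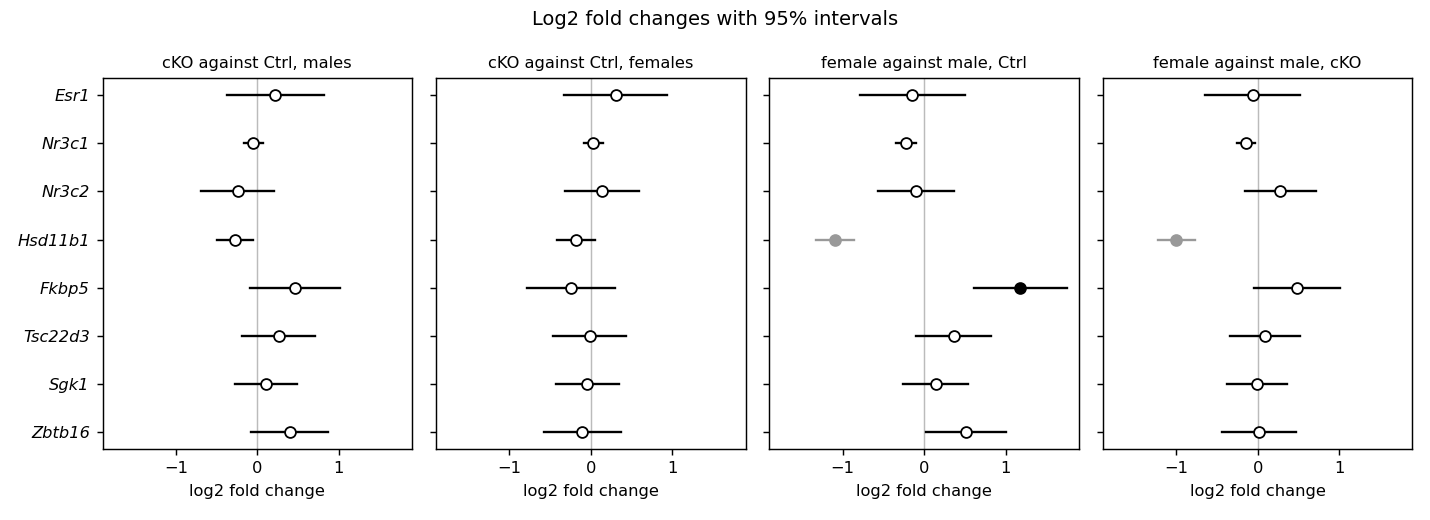
Log2 fold changes (points) with 95% intervals (lines) of the 8 genes for cKO against Ctrl in each sex and for female against male in each genotype; filled black points passed an edgeR adjusted p of 0.05, open points did not, and grey points mark Hsd11b1 where it was chosen on that contrast. Fkbp5 in Ctrl mice (1.18) is the sole black point, and the Nr3c1 intervals are the narrowest.

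Loss of Ppp2r2a was compared next, in each sex. None of the 8 genes was called by edgeR in cKO against Ctrl males, where 0.443% of all genes were called, or in females, where 0.0326% were. None was called for the mean of both sexes (1.33% of all genes) or for the difference between the sexes (0% of all genes). At an unadjusted p under 0.05, Hsd11b1 was the 1 gene of the 8 in males (13.2% of all genes) and for the mean (14.1%), and 0 of 8 passed in females (5.15%) or for the difference (3.96%). DESeq2 and limma voom also called 0 of the 8 in these 4 comparisons.

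Hsd11b1 was the gene nearest to a genotype difference. The cKO level was 23.6 ± 1.93 CPM (SD, n = 7) against 28.6 ± 6.09 (n = 6) in Ctrl males, and 11.8 ± 1.63 (n = 7) against 13.4 ± 1.83 (n = 6) in Ctrl females. The log2 difference was -0.28 in males (SE 0.11; edgeR adjusted p = 0.239) and -0.18 in females (SE 0.11; edgeR adjusted p = 0.965). Averaged over the sexes it was -0.23 (95% interval -0.39 to -0.07; edgeR adjusted p = 0.145). The 2 Ctrl males with the lowest Ppp2r2a, numbers 3 and 6, were also the 2 highest Ctrl males in Hsd11b1, at 31.8 and 38.3 CPM. Without them the male difference was -0.11 (edgeR adjusted p = 0.716).

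The glucocorticoid-induced genes had positive values in cKO males and values near or below 0 in cKO females. In males the log2 differences were 0.46 for Fkbp5 (95% interval -0.09 to 1.02), 0.40 for Zbtb16 (-0.08 to 0.87), 0.26 for Tsc22d3 (-0.19 to 0.71) and 0.11 for Sgk1 (-0.27 to 0.49). In females they were -0.24, -0.10, -0.01 and -0.04 in the same order. The difference of the genotype effect between the sexes passed for none of the 4, with edgeR adjusted p of 0.999 for each. The sign of the female values of Tsc22d3 and Sgk1 turned when the mice numbered 2 were left out (0.02 and 0.03).

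Of the receptor genes, Nr3c1 had the narrowest interval. Its log2 difference was -0.05 in males (95% interval -0.16 to 0.07) and 0.03 in females (-0.08 to 0.15). Nr3c2 was at -0.24 in males (-0.69 to 0.21) and 0.14 in females (-0.31 to 0.59). Esr1 was at 0.22 in males (-0.38 to 0.82) and 0.31 in females (-0.33 to 0.94), so changes of over 1.5-fold in these last 2 genes lie within the intervals.

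Other genes of the pathway were examined as lists, which were also chosen with earlier results of these data known. Of the other sex steroid receptors, Gper1, a membrane estrogen receptor, had group means of 1.5 to 2.0 CPM and did not pass in any comparison. Esr2 and Pgr had at most 1 count in any library and were not tested. Of 6 estrogen-induced genes only Ctsd and Xbp1 could be tested; their sex differences of -0.11 (edgeR adjusted p = 0.0668) and 0.03 (edgeR adjusted p = 0.805) did not pass.

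Of 16 genes of steroid metabolism and transport, 8 were tested. The adrenal synthesis genes Cyp11b1 and Cyp11b2 and the aromatase gene Cyp19a1 had 0 counts in every library, and Hsd11b2, whose product inactivates corticosterone, had at most 7 counts. H6pd, the NADPH source of Hsd11b1, was higher in females averaged over genotypes (log2 0.18, SE 0.06; edgeR adjusted p = 0.0444), opposite in sign to Hsd11b1. Hsd17b10, a mitochondrial dehydrogenase of steroids and fatty acids, was also higher in females (0.18, edgeR adjusted p = 0.00285) and lower in cKO mice over both sexes (-0.16, edgeR adjusted p = 0.0308). Hsd17b11 was higher in females as well (0.29, edgeR adjusted p = 0.0245). These 3 sex differences are averages over genotypes, and 3 of 8 stands against 4.02% of all genes called higher. Within Ctrl mice edgeR called 0 of the 8 between the sexes (0.638% of all genes), and within cKO mice 1 (2.7%). The list's median sex difference was 0.16, against 0.00 over all genes tested.

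Among 11 chaperones and coregulators of the receptors, Fkbp4 was the gene called in males, where it was lower in cKO mice. Fkbp4 encodes the cochaperone FKBP52, which competes with the Fkbp5 product for the receptor complex. It ran from 390 to 468 CPM (median 409) in Ctrl males and from 325 to 382 CPM (median 371) in cKO males, without overlap, which was so for 1.28% of all genes. The log2 difference was -0.22 in males (SE 0.05; edgeR adjusted p = 0.0486), -0.11 in females (edgeR adjusted p = 0.942) and -0.17 on average (edgeR adjusted p = 0.0174). The male value lies just under the threshold, and Fkbp4 was fitted with edgeR only. Over all genes, the 68 calls in males fell to 4 without Ctrl male 5, and whether Fkbp4 stayed among them was not examined. Averaged over genotypes, the chaperone gene Hsp90aa1 was lower in females (-0.45, edgeR adjusted p = 0.0272). It was the 1 gene of the 11 called there, against 3.69% of all genes called lower. Within Ctrl and within cKO mice 0 of the 11 passed between the sexes (smallest edgeR adjusted p 0.263 and 0.109). The list's median genotype difference was 0.03 in males and -0.04 in females.

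Genes acting with Nr3c2 and Sgk1 in sodium transport did not pass in any comparison. The sodium channel genes Scnn1b and Scnn1g had at most 1 and 0 counts and were not tested. Of the 4 tested, Scnn1a had the smallest p for the sexes (log2 0.55, SE 0.24; edgeR adjusted p = 0.168).

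The 18 other genes known to be induced by glucocorticoids were then set beside Fkbp5. Averaged over genotypes, 4 of 18 were higher in females and 0 lower, against 4.02% and 3.69% of all genes. They were the metallothioneins Mt1 (log2 0.58, edgeR adjusted p = 5.71e-05) and Mt2 (0.53, adjusted p = 0.0344), the cell cycle inhibitor Cdkn1a (0.61, adjusted p = 0.0260) and the siderophore-binding protein Lcn2 (0.75, adjusted p = 0.0383). Mt1 also passed within Ctrl mice (0.64, edgeR adjusted p = 0.00622) and within cKO mice (0.52, edgeR adjusted p = 0.0124), and was the single gene of the 18 to do so in either. In Ctrl mice 18 of 18 values were positive, with a median of 0.29 against 0.00 over all genes. In cKO mice 12 of 18 were positive, with a median of 0.13 against 0.01. These signs are not independent: the genes were measured in the same mice, and 9 of the 18 moved with Tsc22d3 between mice, as described further down.

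None of the 18 was called by edgeR in cKO against Ctrl mice of either sex. At an unadjusted p under 0.05 there were 3 of 18 in males, against 13.2% of all genes, and 0 of 18 in females, against 5.15%. In males 15 of 18 values were positive with a median of 0.28, where Cdkn1a (0.56) and Bcl6 (0.43) had the smallest p. In females 6 of 18 were positive with a median of -0.04, where Klf15 (-0.19) and Klf9 (-0.12) had the smallest p. The male and Ctrl sex comparisons share the Ctrl male libraries, and the signs of the 18 genes are not independent here either.

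**Figure D3:**
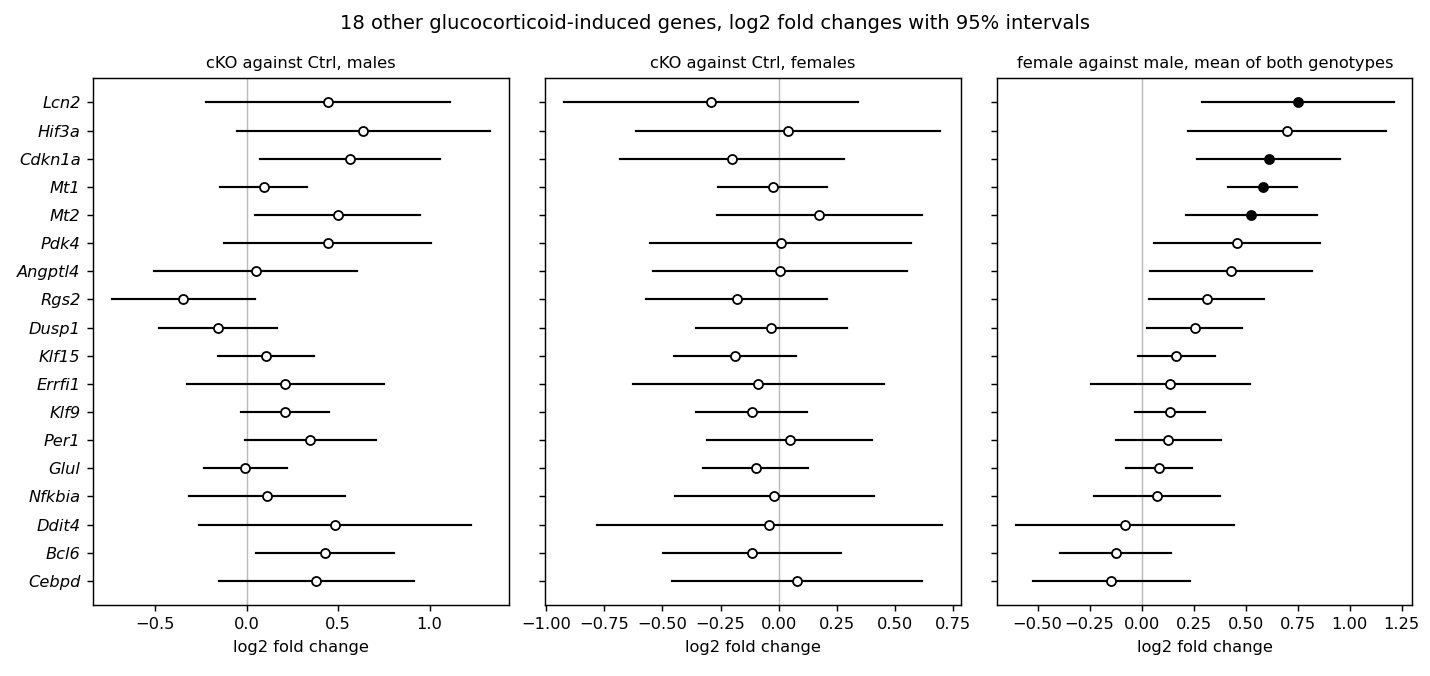
Log2 fold changes (points) with 95% intervals (lines) of 18 other glucocorticoid-induced genes for the genotype comparison within each sex and for female against male averaged over genotypes, on axes that differ between panels; filled points passed an edgeR adjusted p of 0.05. The 4 filled points, Lcn2, Cdkn1a, Mt1 and Mt2, are all in the sex comparison, between 0.53 and 0.75.

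Whether the 8 genes varied together was examined over the 26 mice after each group's mean was removed, so that neither sex nor genotype enters. Of 28 pairs, 3 passed, each between glucocorticoid-induced genes and each positive. The share of pairs among all genes that would pass was not computed. Fkbp5 and Zbtb16 had a Pearson r of 0.79 (permutation p = 0.00011, adjusted over 28 pairs 0.00154) and a Spearman rho of 0.70 (p = 0.00024, adjusted p = 0.00336). Fkbp5 and Tsc22d3 had r = 0.70 (permutation p = 1e-04, adjusted p = 0.00154) and rho = 0.74 (p = 0.00017, adjusted p = 0.00336). Tsc22d3 and Sgk1 had r = 0.75 (permutation p = 0.00063, adjusted p = 0.00588), while their rho of 0.60 missed the threshold (p = 0.00598, adjusted p = 0.0558).

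The 4 groups gave the same sign in each of these pairs. Within groups, r ran from 0.63 to 0.95 for Fkbp5 and Zbtb16, from 0.39 to 0.84 for Fkbp5 and Tsc22d3, and from 0.24 to 0.95 for Tsc22d3 and Sgk1. Without the 2 mice farthest from the median of the first gene, r was 0.64, 0.57 and 0.63 in the same order, with permutation p adjusted over 28 pairs of 0.0598, 0.0484 and 0.0598. Only Fkbp5 and Tsc22d3 then passed, and all 3 values lie close to the threshold. They were Ctrl female 5 and Ctrl male 4 for Fkbp5, and Ctrl females 2 and 5 for Tsc22d3. Without both females numbered 2, the pair Tsc22d3 and Sgk1 fell to r = 0.54 (adjusted p = 0.266).

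The other pairs did not pass. Fkbp5 and Sgk1 had r = 0.52 (rho 0.50, permutation p = 0.0167, adjusted p = 0.117; r = 0.51 without the 2 mice). Over all mice, the receptor gene Nr3c1 ran opposite to its induced genes in sign, most with Tsc22d3 (r = -0.51, rho -0.41, permutation p = 0.0331, adjusted p = 0.133; r = -0.37 without the 2 mice). The groups did not share this sign. In Ctrl males r of Nr3c1 was positive with all 4, from 0.05 (Tsc22d3) to 0.47 (Zbtb16), and in the other groups it was negative. Hsd11b1 was negative with all 4 induced genes over all mice, most with Sgk1 (r = -0.48, rho -0.47, permutation p = 0.0238, adjusted p = 0.133; r = -0.53 without the 2 mice). By group, its r with Sgk1 was -0.43 in Ctrl males, 0.55 in cKO males, -0.83 in Ctrl females and -0.67 in cKO females. With Tsc22d3 it was positive in males (0.32 in Ctrl, 0.06 in cKO) and negative in females (-0.66 in Ctrl, -0.40 in cKO). Among 16 relations of the 8 genes with total count and with the mitochondrial share of counts, the smallest adjusted p was 0.527. It belonged to Fkbp5 (r = -0.44, permutation p = 0.0352) and Zbtb16 (r = -0.41, permutation p = 0.0659) with total count. Total counts were lower on average in females than in males of each genotype. On average, 3 counts corresponded to 0.143 CPM in Ctrl females (0.124 in Ctrl males) and to 0.168 in cKO females (0.137 in cKO males). Fkbp5 was thus higher in the sex with lower totals, the same direction as its r within groups. The part of total count in the sex difference of Fkbp5 was not tested.

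**Figure D4:**
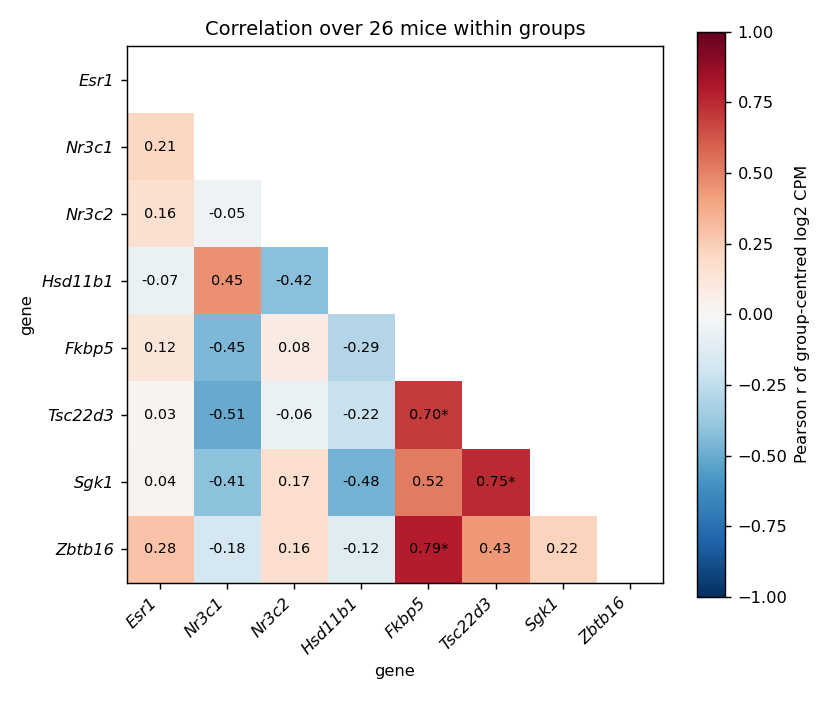
Pearson r of log2 CPM over 26 mice, after each group's mean was removed, for the 28 pairs of the 8 genes (colour and printed value); an asterisk marks an adjusted permutation p under 0.05. The asterisks fall on Fkbp5 with Zbtb16 (0.79), Fkbp5 with Tsc22d3 (0.70) and Tsc22d3 with Sgk1 (0.75).

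**Figure D5:**
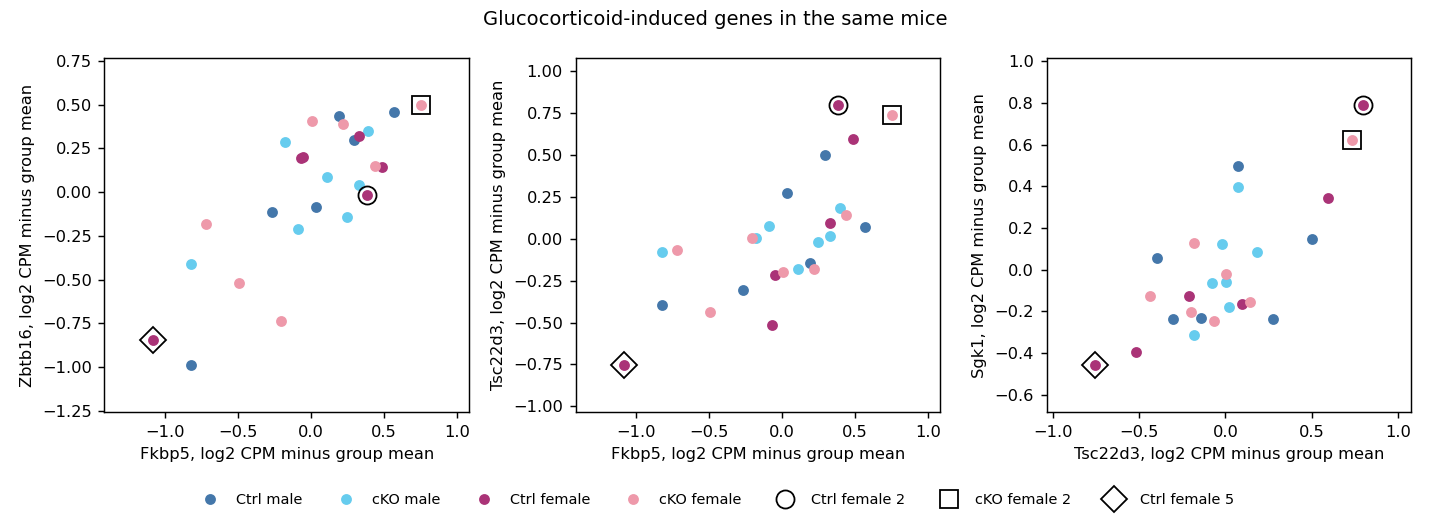
Each mouse's log2 CPM minus its group mean for the 3 pairs that passed (points coloured by group; both axes in log2 units); open symbols mark Ctrl female 2, cKO female 2 and Ctrl female 5. Ctrl female 5 is at the low end of all 3 panels in Fkbp5 and Tsc22d3, and the females numbered 2 are at the high end of Tsc22d3 and Sgk1.

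Genes most like each of the 8 were ranked by the same r among the 13270 tested genes with a mean of at least 1 CPM, as a description over 26 mice. Tsc22d3 was most like the clock gene Per1 (0.91), the transcription factor gene Cebpd (0.90) and the water channel gene Aqp1 (0.90). Sgk1 was most like Errfi1 (0.90), Tcim (0.86) and Enc1 (0.83). Fkbp5 was most like Aff1 (0.86), Tiparp (0.84) and Hhipl1 (0.83), and Zbtb16 was most like Aff1 (0.84), Fkbp5 (0.79) and Zfp597 (0.77). Thus Aff1 headed the lists of both Fkbp5 and Zbtb16.

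For Hsd11b1 the highest values were for Exoc1 (0.85), C3ar1, a complement receptor gene of macrophages (0.73), and Zfp341 (0.71). For Nr3c2 they were Rnf150 (0.84), D330025C20Rik (0.79) and 1810030O07Rik (0.78). Nr3c1 was most like Mfsd6 (0.74), Dnajb14 (0.70) and Tmem171 (0.70). Esr1, measured by few counts, was most like Il6st (0.67), Uevld (0.66) and Ppp2r5c (0.65). None of the 4 induced genes was among the 3 genes most like a receptor gene or Hsd11b1.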

How the data were processed

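Poly-A RNA was sequenced from stranded libraries made from 500 ng of RNA of about 20 mg of left ventricle, with RNA integrity numbers of at least 7.7, per the labels' protocols. The authors deposited 1 matrix of raw read counts per gene for 26 libraries. Reads were handled with FastQC 0.74, cutadapt 4.6, STAR 2.7.11a and HTSeq against GRCm39, per the submitters' processing notes. Of 56941 genes, 29156 had a count and 310 had no gene name. Library totals ran from 14403102 to 30867399 counts; counting error limits genes of few counts, such as Esr1.

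From these deposited counts, 15357 genes passed edgeR's filterByExpr (minimum count 10). Counts were TMM-scaled and fitted with edgeR 4.0.16 (R 4.3.3) in 1 quasi-likelihood model with robust dispersions and 1 mean per group over all 4 groups. Benjamini-Hochberg adjustment covered the 15357 genes in each of 7 contrasts, with a call at an adjusted p under 0.05. Log2 CPM for correlations used a prior count of 2, with 100000 permutations of mice within groups (two-sided). Confidence intervals are at 95%. Scripts were tested on simulated data. DESeq2 1.42.0, limma 3.58.1 and the other alternatives were run for the 8 genes and the counts of all genes called; the further lists were fitted with edgeR only.

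Named genes were the 8 members in each contrast; for each further list the genes called, or the 2 of smallest p where none was; and the 3 genes most like each member. Some items of these lists, called genes among them, are not reported here. The members and lists were chosen with earlier results of these data known. Within groups, no 2 libraries agreed within sampling noise (lowest chi-square per degree of freedom 7.79 over 72 pairs). The labels name no sequencing batch. Replicate numbers were not treated as pairing mice, as the labels tie them to nothing shared and 6 of 37 same-numbered pairs had a correlation over 0.1. Between Ctrl and cKO females, however, 3 of 6 such pairs were over 0.1, the highest at 0.40. Their mean was 0.12, against -0.02 for females of different numbers. A fit with the number as a block is given below.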

Additional observations from a re-analysis of the deposited data

Results flagged for a closer look

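In the cKO females, the mouse numbered 2 was flagged as outlying in 2 of the glucocorticoid-induced genes. Its Tsc22d3 level was 231.1 CPM, against 152.9 for the next of the 7 mice, and its Sgk1 level was 121.7 CPM, against 86.4 for the next. The gap to the nearest mouse exceeded Dixon's critical value for 7 samples in both genes. Of 32 combinations of gene and group examined, these were the 2 that did so. Chance alone gives about 1 in 20 for each combination, so 2 of 32 is near the share given by chance. Both come from the same mouse, in 2 genes whose levels moved together between mice. The Ctrl female with the same number was the highest of its group in both genes, at 232.8 and 136.6 CPM, without passing the same criterion. The cause was not tested.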

How the results depend on the processing

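Counts of members called in the sex comparisons leave out Hsd11b1, which was chosen on them. The calls of Fkbp5 and Nr3c1 for the averaged sex difference held under all 7 alternatives and all 26 fits without 1 mouse (2 members called in each), and 0 members were called in every alternative of the 4 genotype comparisons and of the sexes in cKO mice. For the sexes in Ctrl mice, where edgeR called 1 member, DESeq2's Wald test called 2 (Nr3c1 added, adjusted p = 0.0243), while limma voom, no filter, a fit of the compared groups only, leaving out Ctrl males 3 and 6, or leaving out the females numbered 2 gave 0; leaving out 1 mouse gave 0 to 2. Leaving out Ctrl males 3 and 6 or the females numbered 2 was chosen after seeing the data.

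Counts of all genes called moved more. In males (68) DESeq2 called 386, no filter 31, and the fit without Ctrl males 3 and 6 called 7; in females (5) they were 9 with DESeq2, 3 with voom and 1 with the compared groups only. The mean genotype difference (205) had 525 with DESeq2 and 113 with no filter. The sexes in Ctrl mice (98) had 253 with DESeq2, 61 with the compared groups only and 40 without Ctrl males 3 and 6; in cKO mice (414) they had 708 and 244 with DESeq2 and no filter; averaged (1184), 780 with no filter and 699 without Ctrl males 3 and 6. Leaving out 1 mouse gave 4 (without Ctrl male 5) to 79 genes in males, 3 to 7 in females, 96 to 349 for the mean, 0 to 0 for the difference between sexes, 54 to 114 and 163 to 548 for the sexes in Ctrl and cKO mice, and 853 to 1244 averaged. Correlated pairs (3) came to 1 without the 2 farthest mice. The causes were not tested.

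With the replicate block, 3 genes were called in females, and no call of a member changed; same-numbered mice were not shown to be paired, and 6 of 26 mice correlated best with their own number. The block turned the sign of Tsc22d3 (0.067) and Sgk1 (0.0039) in females and of Nr3c2 for the mean (0.045). Other signs that turned all belong to values that passed no test. With voom these were Tsc22d3 in females (0.049), Esr1 for the difference (-0.062) and Zbtb16 for the sexes in cKO mice (-0.025). Without Ctrl males 3 and 6 they were Nr3c1 in males (0.0074) and for the mean (0.020) and Hsd11b1 for the difference (-0.075). Without the females numbered 2 they were Tsc22d3 (0.020) and Sgk1 (0.033) in females, Nr3c2 for the mean (0.047), Sgk1 for the sexes in Ctrl mice (-0.061) and averaged (-0.099), and Esr1 (0.029), Tsc22d3 (-0.067) and Zbtb16 (-0.067) for the sexes in cKO mice.

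Leaving out 1 mouse turned the sign of these untested or uncalled values, given as lowest to highest: in females Nr3c2 (-0.027 to 0.29), Sgk1 (-0.17 to 0.16) and Tsc22d3 (-0.17 to 0.17); for the mean Nr3c1 (-0.023 to 0.0075), Nr3c2 (-0.13 to 0.025) and Sgk1 (-0.029 to 0.13); for the difference Esr1 (-0.21 to 0.25), Hsd11b1 (-0.0038 to 0.18) and Sgk1 (-0.28 to 0.049). For the sexes they were Esr1 (-0.31 to 0.14 in Ctrl, -0.26 to 0.029 in cKO, -0.20 to 0.040 averaged), Sgk1 (-0.059 to 0.26, -0.14 to 0.062 and -0.035 to 0.12), Nr3c2 in Ctrl (-0.25 to 0.013), and Tsc22d3 (-0.067 to 0.15) and Zbtb16 (-0.067 to 0.12) in cKO mice.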

Other observations

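The 18 other glucocorticoid-induced genes were also compared with Tsc22d3, Fkbp5 and Hsd11b1 over the 26 mice within groups, a comparison added after the 8 genes had been examined, with 54 relations adjusted together. With Tsc22d3, 9 of 18 passed, all positive. The highest were Per1 (r = 0.91, rho 0.86), Cebpd (0.90, rho 0.87) and Ddit4 (0.89, rho 0.89), each with the smallest permutation p that 100000 permutations can give (1e-05, adjusted p = 0.00018). Without the 2 farthest mice r was 0.86, 0.89 and 0.83. Nfkbia (0.82), Errfi1 (0.78), Klf9 (0.64), Cdkn1a (0.63), Klf15 (0.52) and Bcl6 (0.50) were the other 6, and without the 2 farthest mice their r was 0.75, 0.66, 0.60, 0.49, 0.45 and 0.26. Bcl6 thus rests on those mice, and its rho of 0.46 did not pass (permutation p = 0.0219, adjusted p = 0.0623). The share of all tested genes that would pass with Tsc22d3, Fkbp5 or Hsd11b1 was not computed. Genes outside the list had values as high, such as Aqp1 with Tsc22d3 (r = 0.90) and Aff1 with Fkbp5 (r = 0.86). The counts of 18 are therefore not shown to be particular to glucocorticoid-induced genes.

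With Fkbp5, 4 of 18 passed: the transcription factor genes Klf9 (r = 0.71, rho 0.72, permutation p = 0.00031, adjusted p = 0.00247), Klf15 (r = 0.66, rho 0.64, permutation p = 0.00081, adjusted p = 0.00547), Per1 (r = 0.62, rho 0.62, permutation p = 0.00118, adjusted p = 0.00637) and Hif3a (r = 0.51, rho 0.51, permutation p = 0.0101, adjusted p = 0.0419). Without the 2 farthest mice r was 0.72, 0.66, 0.55 and 0.44. The metallothionein Mt1, the one gene of the 18 called between the sexes in both genotypes, did not pass with Fkbp5 (r = 0.40, rho 0.49, permutation p = 0.0538, adjusted p = 0.132). With Hsd11b1 none of the 18 passed; r ran from -0.42 to 0.10 with a median of -0.22, and the smallest adjusted p was 0.125.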
